A study of Mus musculus with 6 samples.

Results

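The genes Trh, Nt5e, Slc7a7 and Adam23 encode a secreted hormone precursor, a cell-surface enzyme, an amino acid transporter and a membrane adhesion protein. They are 4 of the 18857 genes with reads in at least 1 library, and they were chosen by their reads and RPKM, because each was lower with the Mek inhibitor PD0325901 in both cell states and lower 48 hours after doxycycline (Dox) withdrawal. Those 3 comparisons therefore describe the choice. PolyA RNA from mouse KH2 embryonic stem cells (ESCs; C57BL/6 x 129 background) was sequenced in 6 libraries, 1 per group. The groups were wild-type KH2 cells after 48 hours of PD0325901, untreated wild-type KH2 cells, and 4 states of a KH2 line of genotype iErk1; Erk KO. These states were growth in Dox, 48 hours after its withdrawal, 96 hours after it, and 96 hours after it with PD0325901 added for the final 48. In that line an Erk1 transgene is switched on by Dox in cells without their own Erk, so the group with Dox carries the knockout too. The labels give neither the inhibitor's dose nor the culture medium, nor whether feeder cells were used, and the number of clones behind the line is not given there. Below, "Erk KO" stands for that line.

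Mek phosphorylates and switches on the Erk kinases, which change transcription through factors such as those of the ETS and AP-1 families. In mouse ESCs, signals from Fgf through Mek and Erk prepare cells to leave the naive state, and Mek inhibitors are used to hold them in it. Trh encodes the precursor of thyrotropin-releasing hormone, a short peptide best known as the hypothalamic signal that makes the pituitary release thyrotropin. Nt5e encodes CD73, an enzyme anchored on the outside of the cell that turns AMP into adenosine. Slc7a7 encodes y+LAT1, the light chain of a plasma membrane exchanger of cationic and neutral amino acids that needs the heavy chain encoded by Slc3a2. Adam23 encodes a member of the ADAM family without protease activity that binds Lgi1 and the integrin alpha v beta 3.

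The promoters are given as a description. The 4 genes were chosen for moving together, so that likeness is no ground to expect shared motifs. RefSeq has an entry for each gene on GRCm38.p6, a later build than the mm9 build that the submitters' processing notes name. Each sequence runs from 250 bases before the annotated start to 50 bases after it, 5′ to 3′ on the gene's strand, and capitals mark matches to 1 of 3 motifs of transcription factors downstream of Erk. The motifs were CCGGAA for ETS factors, TGANTCA for AP-1 and GCGNGGGCG for EGR1, searched on both strands. For Slc7a7, the most upstream of the 5 annotated starts used here is shown. The RefSeq entry of Slc7a7 reaches base 54420068, upstream of all 5, and the promoter at that end was not searched. The RefSeq entry of Adam23 begins at base 63445717, upstream of the start used but within the window shown.
Trh (chr6:92244601-92244900, minus strand): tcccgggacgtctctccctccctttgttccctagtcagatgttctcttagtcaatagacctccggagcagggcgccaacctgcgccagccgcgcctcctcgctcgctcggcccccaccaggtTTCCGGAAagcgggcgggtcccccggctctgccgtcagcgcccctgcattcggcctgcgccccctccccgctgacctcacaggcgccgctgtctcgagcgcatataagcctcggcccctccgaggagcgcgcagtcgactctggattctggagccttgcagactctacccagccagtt
Nt5e (chr9:88327359-88327658, plus strand): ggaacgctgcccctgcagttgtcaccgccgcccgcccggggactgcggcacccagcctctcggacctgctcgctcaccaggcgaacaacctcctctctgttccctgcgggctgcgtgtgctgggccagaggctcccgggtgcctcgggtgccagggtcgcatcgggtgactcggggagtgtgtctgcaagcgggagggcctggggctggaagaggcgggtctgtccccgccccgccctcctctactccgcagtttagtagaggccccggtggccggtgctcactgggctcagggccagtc
Slc7a7 (chr14:54417895-54418194, minus strand): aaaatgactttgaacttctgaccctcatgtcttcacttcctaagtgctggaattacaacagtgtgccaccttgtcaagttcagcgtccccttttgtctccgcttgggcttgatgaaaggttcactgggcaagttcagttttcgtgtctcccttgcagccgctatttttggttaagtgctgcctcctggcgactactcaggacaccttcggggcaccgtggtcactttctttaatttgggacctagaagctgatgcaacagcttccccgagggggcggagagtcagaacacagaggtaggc
Adam23 (chr1:63445641-63445940, plus strand): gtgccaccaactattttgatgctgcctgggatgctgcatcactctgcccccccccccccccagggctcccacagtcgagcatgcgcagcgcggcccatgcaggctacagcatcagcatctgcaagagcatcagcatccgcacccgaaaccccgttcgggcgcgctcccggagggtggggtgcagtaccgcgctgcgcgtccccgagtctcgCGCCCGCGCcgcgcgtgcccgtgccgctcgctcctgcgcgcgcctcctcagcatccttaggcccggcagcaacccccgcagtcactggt
The Trh promoter held 2 ETS matches, 1 on each strand, that overlap in a run of 8 bases that reads the same on both strands, and the run starts 128 bases before the start site. The Adam23 promoter held 1 EGR1 match. Neither Nt5e nor any of the 5 Slc7a7 starts held a match, and no AP-1 match was found in any of these windows. Of 32851 promoters of this length, 14.9% held the ETS letters, 7.81% the AP-1 letters and 5.55% the EGR1 letters, and no more is read from counts this small. The promoters of Trh, Nt5e and Adam23 were rich in G and C, at 67.0%, 71.0% and 70.0%, and the Slc7a7 starts had between 48.3% and 62.0%.

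Library totals ran from 9.05 to 9.95 times 1e6 uniquely mapped reads. Levels are given as RPKM (the reads of a gene divided by its length in kilobases and by the library total in units of 1e6), and folds compare reads scaled to the library totals. Each group is a single library, so no difference could be set against the spread between replicates: ratios compare libraries, and the 95% intervals in brackets cover counting error only. Mapk3, which encodes Erk1, stood at 14.8 RPKM with Dox, 6.86 RPKM after 48 hours and 6.75 RPKM after 96 hours without it. It stood at 9.18 RPKM in the Erk KO library with PD0325901, at 52.8 RPKM in KH2 cells with PD0325901 and at 56.4 RPKM in untreated KH2 cells. The summed level of 10 ESC markers was 3790 RPKM with PD0325901 against 4257 RPKM without it in KH2 cells, with Dppa5a at 1807 and 1698 RPKM. It was 2711 RPKM in Erk KO cells with Dox, with Dppa5a at 536 RPKM, and between 3242 and 3279 RPKM in the other Erk KO libraries. For Erk KO cells with Dox against untreated KH2 cells the median log2 ratio of the 10 markers was 0.05. Dppa5a and Utf1 were at least 2-fold lower there and Tfcp2l1 at least 2-fold higher. Tfcp2l1 had 34.2 RPKM after 96 hours without Dox against 76.4 RPKM after 48 hours. Single markers moved apart. Nanog had 242 RPKM with PD0325901 against 122 RPKM without it in KH2 cells, and 397 RPKM after 48 hours without Dox against 105 RPKM with Dox. Utf1 had 95.5 against 262 RPKM and 38.2 against 114 RPKM in the same comparisons. In bulk libraries, fewer cells that express a gene and less RNA per cell cannot be told apart.

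Trh had the highest level of the 4 genes in 5 of the 6 libraries. It had 25.9 RPKM (324 reads) in KH2 cells with PD0325901, against 147 RPKM (1839 reads) in untreated KH2 cells. In Erk KO cells it had 4.27 RPKM (58 reads) with PD0325901 and 42.7 RPKM (587 reads) without it, both 96 hours after Dox withdrawal. Along the withdrawal series it had 154 RPKM (2003 reads) with Dox, 35.4 RPKM (475 reads) after 48 hours and 42.7 RPKM after 96 hours. The untreated KH2 and Dox libraries were thus high, and the other libraries were lower, with the doubly treated one lowest. Trh was 5.65-fold lower (5.02 to 6.38) with PD0325901 in KH2 cells, lower by a fold between 7.62 and 13.3 with it in Erk KO cells (log2 ratio of RPKM plus 0.5 of −3.18) and 4.35-fold lower (3.93 to 4.82) after 48 hours without Dox. By level it ranked 444 of all genes in untreated KH2 cells and 8570 in Erk KO cells with PD0325901. Reads covered 68.1% of its 1381 bases in that lowest library, against 98.2% in the untreated library of the same time point.

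**Figure D1:**
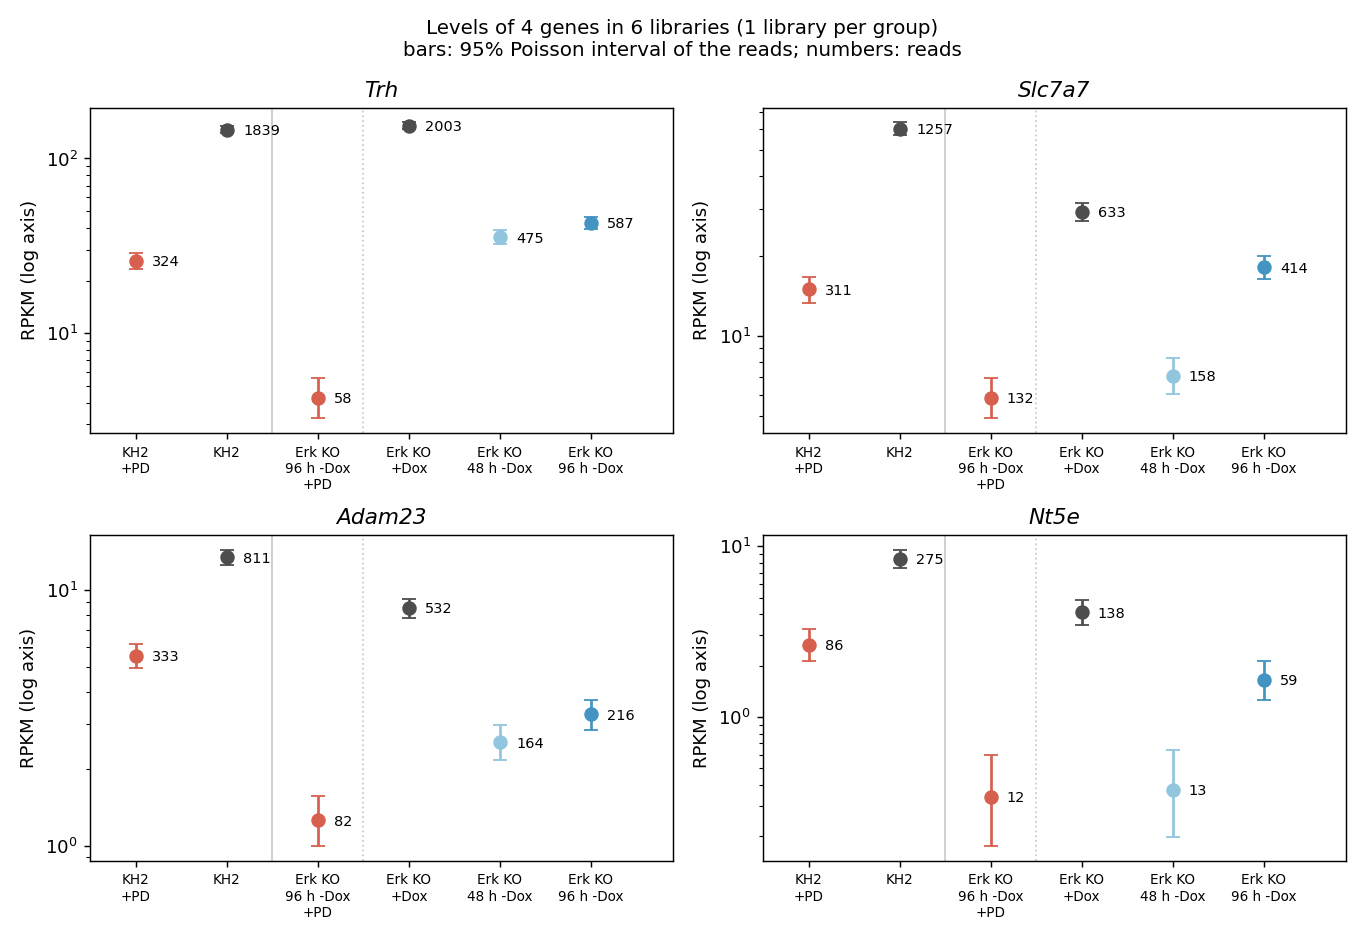
RPKM on a log axis of Trh, Slc7a7, Adam23 and Nt5e in each of 6 libraries, 1 per group; bars are 95% Poisson intervals of the reads, which are printed beside the points, and "PD" is PD0325901. Each gene has its lowest value in Erk KO cells 96 hours without Dox with PD0325901 (4.27, 5.86, 1.25 and 0.341 RPKM).

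Slc7a7, the transporter gene, had 15.0 RPKM (311 reads) in KH2 cells with PD0325901, against 60.4 RPKM (1257 reads) in untreated KH2 cells. In Erk KO cells it had 5.86 RPKM (132 reads) with the inhibitor and 18.2 RPKM (414 reads) without it. With Dox it had 29.4 RPKM (633 reads), after 48 hours without Dox 7.11 RPKM (158 reads) and after 96 hours 18.2 RPKM. The untreated KH2 library stood highest, the library with Dox second, and the 48 hour library was as low as the doubly treated one within counting error (1.21-fold higher, 0.956 to 1.54). The 3 differences behind its choice were 4.02-fold (3.55 to 4.57) with PD0325901 in KH2 cells, 3.10-fold (2.54 to 3.80) with it in Erk KO cells and 4.13-fold (3.47 to 4.95) after 48 hours without Dox, all lower.

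Adam23, the adhesion protein gene, had 5.53 RPKM (333 reads) in KH2 cells with PD0325901, against 13.4 RPKM (811 reads) in untreated KH2 cells. In Erk KO cells it had 1.25 RPKM (82 reads) with PD0325901 and 3.26 RPKM (216 reads) without it. It had 8.49 RPKM (532 reads) with Dox, 2.54 RPKM (164 reads) after 48 hours without Dox and 3.26 RPKM after 96 hours. Neighbours in the order of its 6 levels differed by more than counting error when scaled to library totals. The smallest step, 1.28-fold (1.04 to 1.58) between 96 and 48 hours, was 1.18-fold (0.956 to 1.45) with the TMM factors of edgeR and 1.16-fold (0.943 to 1.43) with the median-of-ratios factors of DESeq2, within counting error. Adam23 had the smallest differences with PD0325901 of the 4 genes, 2.42-fold lower (2.13 to 2.76) in KH2 cells and 2.60-fold lower (2.01 to 3.40) in Erk KO cells. After 48 hours without Dox it was 3.35-fold lower (2.80 to 4.01).

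Nt5e, which encodes CD73, was the least abundant of the 4. It had 2.65 RPKM (86 reads) in KH2 cells with PD0325901, against 8.45 RPKM (275 reads) in untreated KH2 cells. In Erk KO cells it had 0.341 RPKM (12 reads) with PD0325901 and 1.66 RPKM (59 reads) without it. It had 4.10 RPKM (138 reads) with Dox, 0.374 RPKM (13 reads) after 48 hours without Dox and 1.66 RPKM after 96 hours. The 2 libraries with 12 and 13 reads could not be told apart (1.10-fold, 0.462 to 2.63). Nt5e was 3.18-fold lower (2.49 to 4.10) with PD0325901 in KH2 cells and 4.86-fold lower (2.58 to 9.93) with it in Erk KO cells. After 48 hours without Dox it was 10.9-fold lower (6.19 to 21.1), an interval above those of the other 3 genes in that comparison. Reads covered 17.0% of its 3580 bases after 48 hours without Dox, against 70.1% with Dox.

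The fold with PD0325901 in Erk KO cells divided by that in KH2 cells was 0.565 for Trh, 0.656 for Nt5e, 0.932 for Adam23 and 1.30 for Slc7a7. Both folds were used in the choice and each rests on 1 pair of libraries, so these quotients are given as a description and no difference between the cell states is read from them.

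A gene was called lower or higher at a 2-fold difference in RPKM plus 0.5 (log2 ratio of at least 1 in size), with at least 20 reads over both libraries, at least 1 RPKM in the higher one and a counting interval that excluded 1. All 4 genes were lower by this rule in the 3 comparisons that chose them, where 1.22% of genes tested were lower with PD0325901 in KH2 cells, 0.587% with it in Erk KO cells and 2.13% after 48 hours without Dox. In all 3 comparisons at once, 23 of 11065 genes tested were lower, which is 0.208%, and 2 were higher, which is 0.0181%. Among the 23, Trh ranked 1 in mean RPKM over the 6 libraries, Slc7a7 4, Adam23 16 and Nt5e 21. By the mean log2 ratio of the 3 comparisons Trh ranked 2, after the Erk feedback inhibitor gene Spry4, while Slc7a7 ranked 11, Nt5e 12 and Adam23 20. With a pseudocount of 1 in place of 0.5 only Trh and Slc7a7 stayed past the limit in all 3 comparisons, since Nt5e (log2 ratio −0.99) and Adam23 (−0.92) fell short in Erk KO cells with PD0325901. With at least 100 reads asked for, Nt5e drops out, having 71 reads over the Erk KO pair.

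The genes just inside the limit were Gadd45a, with a log2 ratio of −1.02 in its weakest comparison, Exoc3l (−1.03) and the imprinted gene Peg10 (−1.06). Just outside were Spred1, an inhibitor of Ras signalling, at −0.998 with PD0325901 in Erk KO cells, Snai3 at −0.995 in the same comparison, and Chrna9, a subunit of acetylcholine receptors, at −0.97 with PD0325901 in KH2 cells. The weakest log2 ratios of the 4 genes were −2.11 for Trh, −1.55 for Slc7a7, −1.36 for Nt5e and −1.10 for Adam23.

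**Figure D2:**
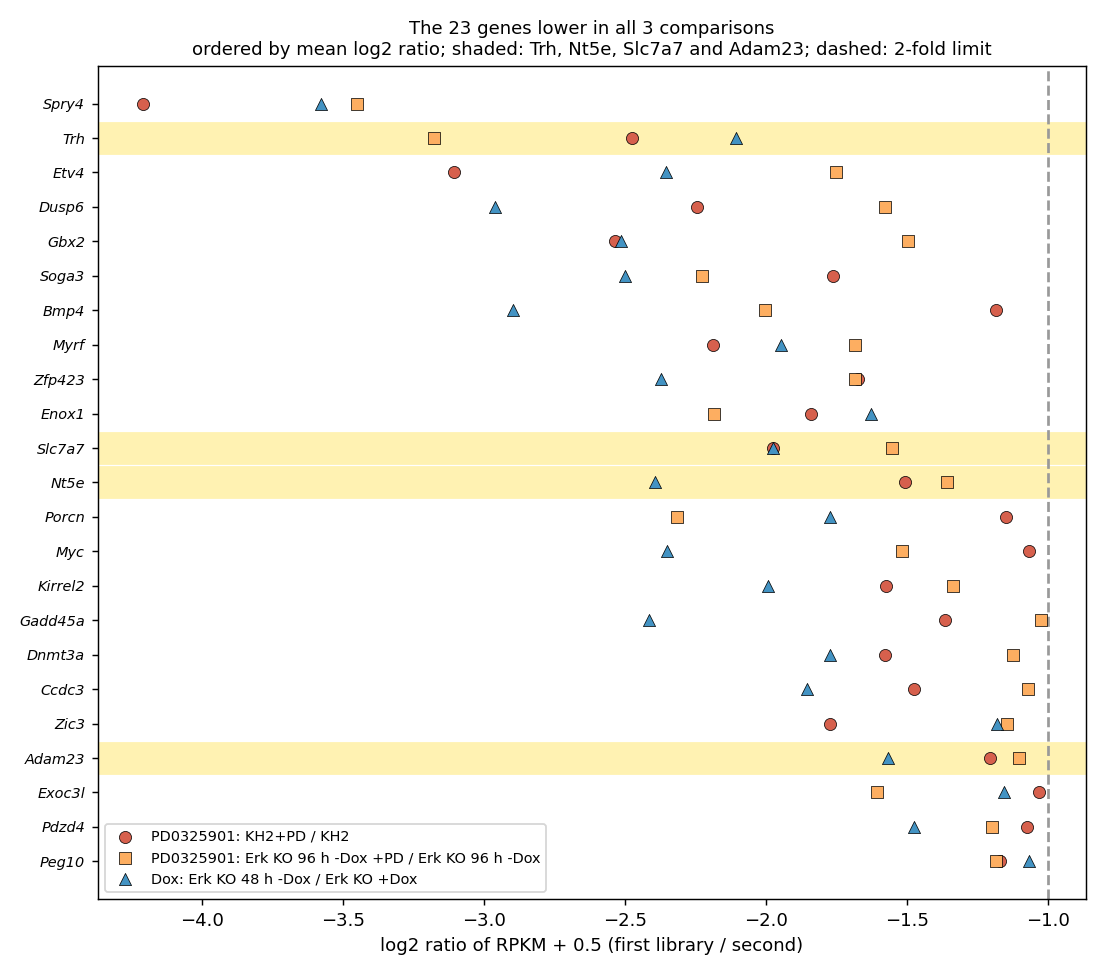
Log2 ratios of RPKM plus 0.5 for the 23 genes lower in all 3 comparisons, 1 row per gene in order of the mean, with 1 symbol per comparison; the dashed line is the 2-fold limit. Trh stands second after Spry4, Slc7a7 and Nt5e lie in the middle and Adam23 (−1.10 to −1.57) near the limit.

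The other comparisons were not used in the choice, but they share libraries with it. After 96 hours without Dox, against the library with Dox, Trh was 3.61-fold lower (3.29 to 3.96), Adam23 2.61-fold lower (2.22 to 3.07) and Nt5e 2.47-fold lower (1.81 to 3.42). These 3 genes were lower by the rule, which 2.07% of genes tested were, while 7.62% were higher. Slc7a7 was 1.62-fold lower (1.43 to 1.84), short of the limit, and with a pseudocount of 1 so was Nt5e (log2 ratio −0.94). Of the other 19 genes lower in all 3 comparisons, 11 were lower here as well. The choice asked for a high value with Dox, so a lower value against that library is favoured for the chosen genes and for these 19. Primitive endoderm markers moved with this comparison: 6 of 10 were lower and 0 higher, and their sum was 24.0 RPKM after 96 hours against 70.4 RPKM with Dox, with all 10 detected in both. Of 8 neural markers 3 were lower and 1 higher, with a sum of 49.7 against 38.6 RPKM. The macrophage sum was 26.4 against 9.77 RPKM with Lyz2 higher, and the mesoderm sum 8.41 against 4.76 RPKM with none called. The trophoblast sum was 47.0 against 64.7 RPKM with 1 of 8 lower and 1 higher. For fibroblasts it was 681 against 609 RPKM with 1 of 26 lower and 2 higher. The lower marker was Pdgfra, which is also in the primitive endoderm list and among its 6 lower markers. The part of these differences in the result was not tested.

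After 96 hours, against 48 hours, Nt5e was 4.42-fold higher (2.40 to 8.79) and Slc7a7 2.55-fold higher (2.12 to 3.09), and both passed the rule, as 4.55% of genes tested did in that direction, with 0.469% lower. With a pseudocount of 1 Nt5e fell short here (log2 ratio 0.95). Adam23 was 1.28-fold higher (1.04 to 1.58) and Trh 1.20-fold higher (1.07 to 1.36), both short of the limit, and with TMM factors the intervals of both included 1 (0.956 to 1.45 for Adam23 and 0.976 to 1.25 for Trh). The median log2 ratio of all genes tested was 0.08. Since the genes were picked for a low value at 48 hours, a higher value at 96 hours is favoured by the choice. The same holds for the other 19 genes of the set, of which 10 were higher here and 0 lower, with a median log2 ratio of 1.01. Of 15 Erk target genes, 14 of them tested, 5 were higher at 96 than at 48 hours and 0 lower. They were Spry4 (log2 ratio 1.76), Egr1 (1.69), Etv4 (1.49), Myc (1.21) and the Erk phosphatase gene Dusp6 (1.03). All but Egr1 are also among those 19 genes, so they were picked in the same way and are no separate group. Mapk3 had a log2 ratio of −0.02. Cell type markers moved as well. At 96 against 48 hours the primitive endoderm sum was 24.0 against 55.0 RPKM with 2 of 10 markers lower, the neural sum 49.7 against 74.3 RPKM with 3 of 8 lower, and the trophoblast sum 47.0 against 78.4 RPKM with 2 of 8 lower and 1 higher. The macrophage sum was 26.4 against 14.5 RPKM with Cd68 higher, and the mesoderm sum 8.41 against 3.62 RPKM with Eomes higher. Eomes is in both the trophoblast and the mesoderm list and is the higher marker of each. The fibroblast sum was 681 against 599 RPKM with 2 of 26 higher. Their part in the result was not tested.

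**Figure D3:**
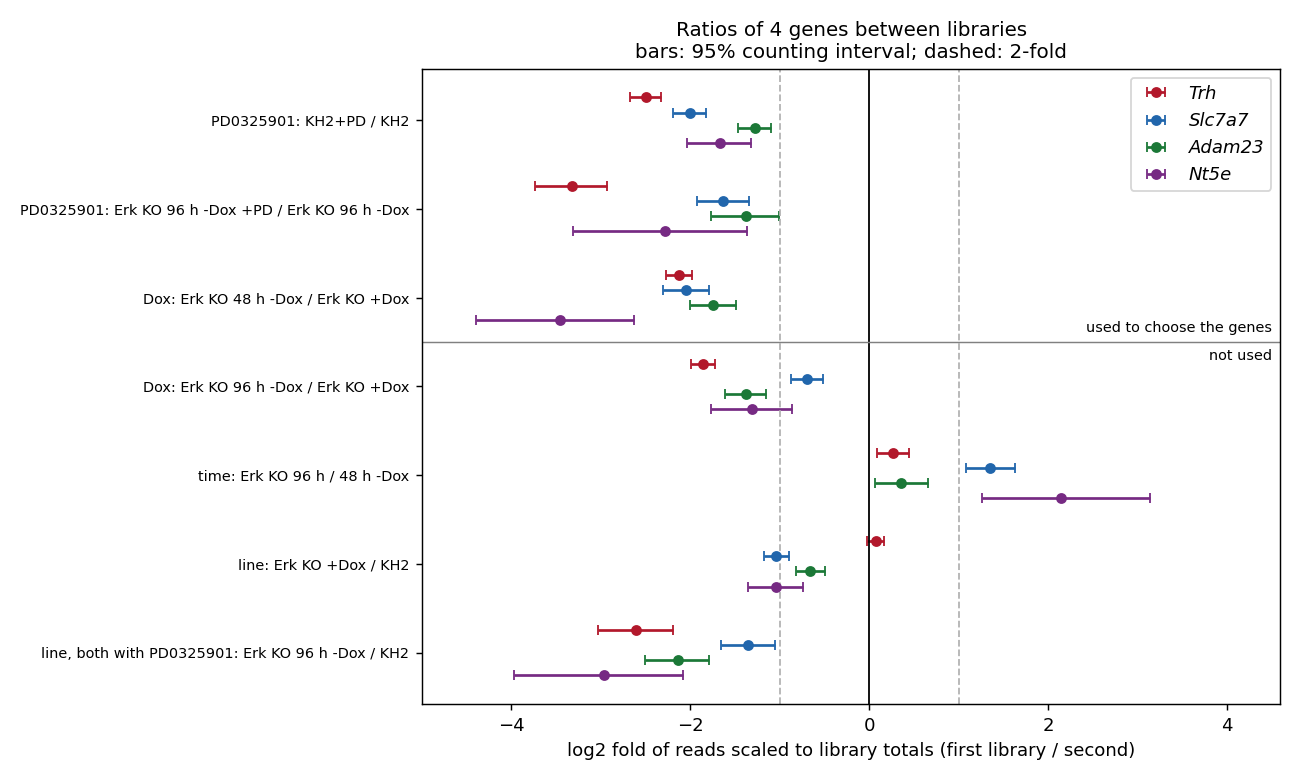
Log2 folds of reads scaled to library totals, first library over second, for Trh, Slc7a7, Adam23 and Nt5e in 7 comparisons; bars are 95% counting intervals and dashed lines mark 2-fold. Above the grey line stand the 3 comparisons that chose the genes, where every point is below −1. Below it stand the other 4 comparisons, with Slc7a7 and Nt5e past 2-fold higher at 96 against 48 hours.

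The Erk KO and KH2 libraries differed in their make-up, so these comparisons depend on the scaling. The median log2 ratio of all genes tested was −0.37 for Erk KO cells with Dox against untreated KH2 cells and −0.27 between the 2 libraries with PD0325901, and it was 0.00 and 0.02 with edgeR's TMM factors. With Dox, Trh in Erk KO cells was 1.05 of its KH2 level (0.987 to 1.12), and 1.39 of it (1.31 to 1.49) with TMM factors. The other 3 genes were lower in Erk KO cells with Dox. Slc7a7 was 2.06-fold lower (1.87 to 2.27) and passed the rule, as 21.4% of genes tested did against 2.76% that were higher, while Nt5e was 2.06-fold lower (1.68 to 2.55) and Adam23 1.58-fold lower (1.41 to 1.76). With TMM factors their log2 ratios were −0.63 for Slc7a7, −0.59 for Nt5e and −0.24 for Adam23, none of them past the limit. Fibroblast markers were lower too, 13 of 26 by the rule, and summed to 609 RPKM in Erk KO cells with Dox against 1371 RPKM in untreated KH2 cells. The mesoderm sum was 4.76 against 21.7 RPKM with 2 of 8 lower, and the neural sum 38.6 against 63.8 RPKM with 1 of 8 lower and 2 higher. The macrophage sum was 9.77 against 17.5 RPKM with Cd68 lower and Lyz2 higher. The trophoblast sum was 64.7 against 93.2 RPKM with Cdx2 lower, and the primitive endoderm sum 70.4 against 69.6 RPKM with Sox17 lower. The part of these differences in the result was not tested.

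With PD0325901 in both, Erk KO cells 96 hours without Dox had less of each gene than KH2 cells. Nt5e was 7.79-fold lower (4.24 to 15.7), Trh 6.07-fold lower (4.58 to 8.17), Adam23 4.41-fold lower (3.46 to 5.69) and Slc7a7 2.56-fold lower (2.08 to 3.16). All 4 passed, where 15.6% of genes tested were lower and 3.73% higher. With TMM factors the log2 ratios were −2.17 for Trh, −1.68 for Nt5e, −1.51 for Adam23 and −0.99 for Slc7a7, so Slc7a7 no longer passed. Of the fibroblast markers 14 of 26 were lower in this comparison, with a sum of 1741 RPKM in Erk KO cells against 4776 RPKM in KH2 cells, and other lists differed too. The primitive endoderm sum was 24.5 against 65.9 RPKM with 5 of 10 markers lower, the neural sum 60.02 against 83.5 RPKM with 3 of 8 lower, the trophoblast sum 53.7 against 127 RPKM with 2 of 8 lower and 1 higher, and the mesoderm sum 7.96 against 14.3 RPKM with 2 of 8 lower. The macrophage sum was 25.2 against 16.8 RPKM with Lyz2 and Adgre1 higher. The part of these differences in the result was likewise not tested. Over all 6 libraries the highest level was 36.1-fold the lowest for Trh (27.8 to 47.7), 24.8-fold for Nt5e (14.0 to 48.6), 10.7-fold for Adam23 (8.52 to 13.6) and 10.3-fold for Slc7a7 (8.60 to 12.4).

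Markers of fibroblasts moved with the inhibitor. Of 26 such markers 16 were higher with PD0325901 in KH2 cells and 15 in Erk KO cells, and 0 were lower. Their summed level was 4776 RPKM with PD0325901 against 1371 RPKM without it in KH2 cells, and 1741 against 681 RPKM in Erk KO cells, with all 26 detected in each library. The part of this difference in the lower levels of the 4 genes with PD0325901 was not tested. In the comparison of 48 hours without Dox with Dox, the summed fibroblast level was 599 against 609 RPKM, with 0 markers higher and 1 lower. Macrophage markers, which bear on Slc7a7 because macrophages express it, summed to between 9.77 and 26.4 RPKM in the 6 libraries, with Cd68 the highest marker in each. They summed to 16.8 RPKM with PD0325901 and 17.5 RPKM without it in KH2 cells, and to 25.2 and 26.4 RPKM in Erk KO cells. In that Erk KO pair 5 of 10 macrophage markers were tested, with a median log2 ratio of 0.42 and none called. Cd14 (0.83), Adgre1 (0.79) and Fcer1g (0.42) had positive log2 ratios, and Cd68 (−0.27) and Lyz2 (−0.24) negative ones. The macrophage sum was 14.5 RPKM after 48 hours without Dox, against 9.77 RPKM with Dox. In that comparison Lyz2 was higher, at 6.14 against 2.01 RPKM (log2 ratio 1.40), and Cd68 had 6.65 against 6.75 RPKM. Sums of the other marker lists with PD0325901 against without it were, in KH2 cells, 65.9 against 69.6 RPKM for primitive endoderm, 127 against 93.2 RPKM for trophoblast, 83.5 against 63.8 RPKM for neural cells and 14.3 against 21.7 RPKM for mesoderm. In Erk KO cells they were 24.5 against 24.0 RPKM for primitive endoderm, 53.7 against 47.0 RPKM for trophoblast, 60.02 against 49.7 RPKM for neural cells and 7.96 against 8.41 RPKM for mesoderm. At 48 hours without Dox, against Dox, they were 55.0 against 70.4 RPKM, 78.4 against 64.7 RPKM, 74.3 against 38.6 RPKM and 3.62 against 4.76 RPKM in the same order of lists. In these lists Cubn, Cdx2 and Mixl1 were lower and Foxf1 higher with PD0325901 in KH2 cells, and no marker was called with it in Erk KO cells. At 48 hours Gata6 was lower, and Tfap2c, Gata3 and Tubb3 were higher. The endoderm median log2 ratio with PD0325901 in KH2 cells was −0.43, while Lama1, its highest marker, had 38.0 against 27.1 RPKM. The part of these differences in the result was not tested.

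Few of the genes that work with these 4 passed the rule, and few of all genes tested did. Of 99 genes in 5 lists of partners and relatives, 53 could be tested with PD0325901 in KH2 cells, and 2 were lower and 4 higher. In Erk KO cells 45 could be tested with it, and 0 were lower and 1 higher. After 48 hours without Dox 39 could be tested, and 2 were lower and 3 higher. The median log2 ratios of the tested list genes were 0.00, 0.02 and −0.14, beside −0.02, 0.01 and −0.03 for all genes tested. Of all genes tested, 1.22%, 0.587% and 2.13% were lower and 3.86%, 1.34% and 2.77% were higher in these comparisons.

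For Trh, the list of processing enzymes, receptors and degrading enzymes had 0 genes lower in any of the 3 comparisons and 8 of 13 tested. Its median log2 ratio was 0.43 with PD0325901 in KH2 cells, 0.13 with it in Erk KO cells and 0.02 after 48 hours without Dox. Prep, a peptidase that cleaves TRH, had 62.2 RPKM in KH2 cells with PD0325901 and 46.5 RPKM in untreated ones. Cpe, the carboxypeptidase that trims prohormones, had 81.5 RPKM with PD0325901 and 40.8 RPKM without it in KH2 cells (log2 ratio 0.99), just short of the limit. Pam, which amidates the peptide's end, had log2 ratios of 0.44 and 0.52 with PD0325901 in KH2 and Erk KO cells and −0.57 after 48 hours without Dox. Qpct, a glutaminyl cyclase that forms the pyroglutamate at the start of TRH, was the only list member to pass, higher after 48 hours without Dox (log2 ratio 1.06). The receptor genes were at or near 0: Trhr had no row in any file, Trhr2 had at most 0.08 RPKM, and the TRH-degrading ectoenzyme gene Trhde had at most 8 reads.

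Of 32 other hormone and neuropeptide precursor genes 11, 8 and 5 could be tested in the 3 comparisons, in the order above, and none of those tested was lower in all 3. With PD0325901 in KH2 cells Pdyn, the prodynorphin gene, was lower, with 2 reads against 20 (after 48 hours without Dox it had 0 reads against 7 with Dox, too few to test), and the proenkephalin gene Penk (log2 ratio 1.09) and the endothelin gene Edn1 (1.25) were higher. Penk was also higher with PD0325901 in Erk KO cells, at 10.7 RPKM against 3.27 RPKM (log2 ratio 1.57). Calca, the gene of calcitonin and its related peptide, was lower after 48 hours without Dox (log2 ratio −1.57) and had log2 ratios of −0.74 and −0.29 with PD0325901 in KH2 and Erk KO cells.

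Of the 22 other genes of extracellular nucleotide and adenosine handling, 1 was lower with PD0325901 in KH2 cells, 0 in Erk KO cells and 1 after 48 hours without Dox. Both calls were Enpp3, an ectonucleotide pyrophosphatase, with 51 reads with PD0325901 against 286 without it in KH2 cells (log2 ratio −2.22) and with 140 reads after 48 hours without Dox against 367 with Dox (−1.35). With PD0325901 in Erk KO cells Enpp3 had a log2 ratio of −0.67. Bst1, an ectoenzyme that makes cyclic ADP-ribose, was higher with PD0325901 in KH2 cells (1.38, 35 reads against 7), and the nucleoside transporter gene Slc28a3 was higher after 48 hours without Dox (1.33). Alpl, the tissue-nonspecific alkaline phosphatase that can also release adenosine from AMP, had 102 RPKM with PD0325901 against 76.6 RPKM without it in KH2 cells, and 76.1 against 71.6 RPKM in Erk KO cells. After 48 hours without Dox Alpl had 76.6 RPKM, against 41.1 RPKM with Dox (log2 ratio 0.89). Entpd1, which makes AMP from ATP outside the cell, had at most 0.07 RPKM in any library, and Adora2b, an adenosine receptor gene, had between 0.39 and 2.98 RPKM.

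No gene of the 15 in the list of SLC3 and SLC7 transporters passed in any of the 3 comparisons, with 8, 7 and 6 tested. Slc3a2, the heavy chain that Slc7a7 pairs with, had 118 RPKM with PD0325901 and 140 RPKM without it in KH2 cells (log2 ratio −0.24), and 102 and 97.2 RPKM in Erk KO cells (0.06). After 48 hours without Dox it had 75.6 RPKM, against 130 RPKM with Dox (−0.78). Slc7a6, the closest relative of Slc7a7 in function, stayed between 18.1 and 22.2 RPKM in the 6 libraries. The large neutral amino acid transporter gene Slc7a5 had log2 ratios of −0.48, −0.02 and −0.80 in the 3 comparisons. The median of the tested transporters was −0.24 with PD0325901 in KH2 cells, 0.01 with it in Erk KO cells and −0.49 after 48 hours without Dox.

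Of 17 ADAM, LGI and integrin genes 0 were lower in the 3 comparisons, with 12, 10 and 9 tested. Adam22, the close relative of Adam23 that also binds Lgi1, had log2 ratios of −0.25, 0.09 and 0.00. Lgi1 itself had at most 0.10 RPKM. Adam12, an active protease of the family, was higher with PD0325901 in KH2 cells (1.18). Itgav, the alpha v chain, had 1407 reads with PD0325901 against 818 without it in KH2 cells (log2 ratio 0.77). Itgb3, the beta 3 chain, was higher after 48 hours without Dox (1.33), at 5.01 RPKM against 1.69 RPKM with Dox. The log2 ratios of Adam23 itself were −1.21, −1.10 and −1.57.

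**Figure D4:**
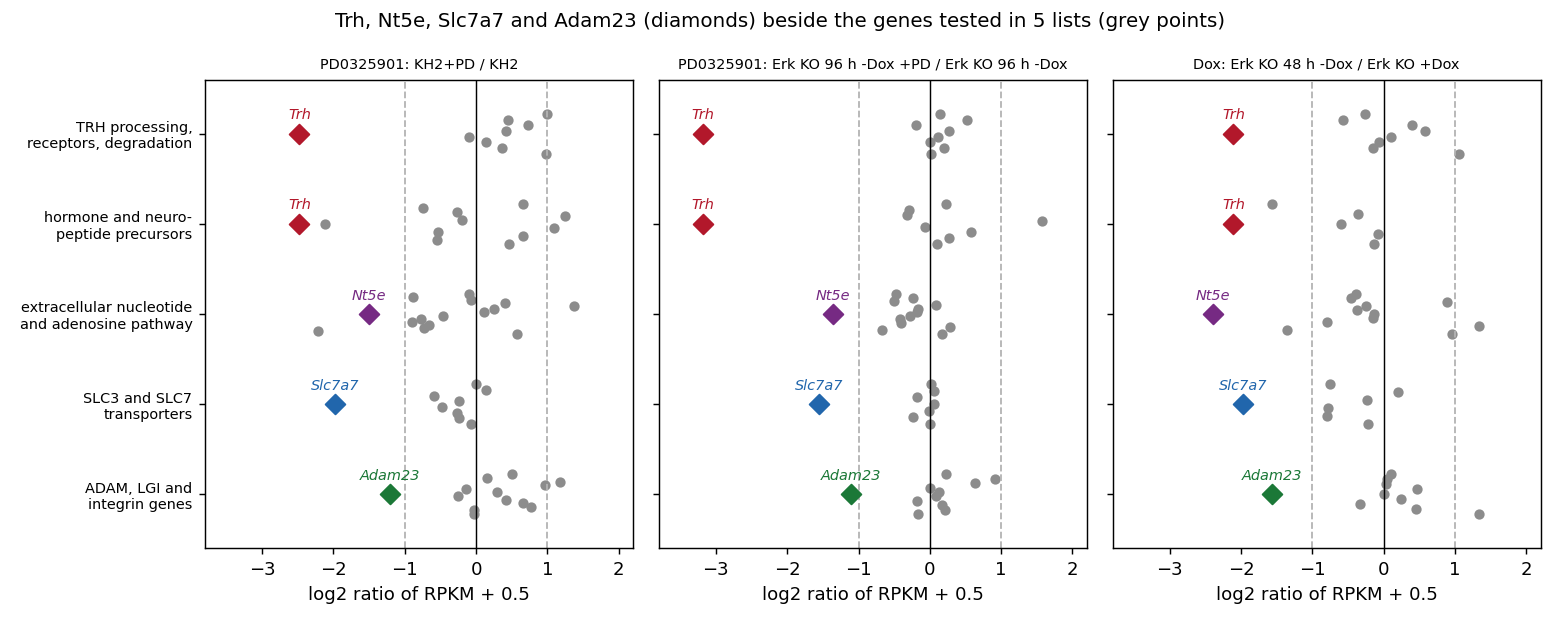
Log2 ratios of RPKM plus 0.5 in the 3 comparisons that chose the genes, 1 panel each, for the tested genes of 5 lists (grey points) and for Trh, Nt5e, Slc7a7 and Adam23 (diamonds); dashed lines mark 2-fold and vertical scatter within a row has no meaning. Of the list genes 2, 0 and 2 were lower in the panels from left to right.

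The list of 15 Erk target genes had 6 lower and 1 higher gene with PD0325901 in KH2 cells, 4 and 0 with it in Erk KO cells, and 12 and 0 after 48 hours without Dox. Its median log2 ratios were −0.61, −0.51 and −1.85, with 15, 15 and 14 genes tested. Over all genes tested, 1.22%, 0.587% and 2.13% were lower and 3.86%, 1.34% and 2.77% higher. Spry4, Etv4, Dusp6 and Myc were lower in all 3 comparisons. The gene higher with PD0325901 in KH2 cells was Ier3 (log2 ratio 1.32). With PD0325901 in KH2 and Erk KO cells Fos had 0.95 and 0.75 and Egr1 0.35 and 0.59, while both were lower after 48 hours without Dox. Etv5 had 0.50 after 48 hours without Dox.

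The likeness of patterns over the 6 libraries was described by Pearson r of log2 RPKM plus 0.5, among 5906 genes with at least 100 reads and a range of at least 1. The 6 points share their library effects with all genes, so r is a description with no test. The 4 genes were chosen for being lower in the same 3 comparisons, which cover all 6 libraries, so high r among them is set by the choice. It was 0.976 between Nt5e and Slc7a7, 0.967 between Nt5e and Adam23, and 0.946 between Slc7a7 and Adam23. For Trh it was 0.889 to Adam23, 0.856 to Slc7a7 and 0.802 to Nt5e. In the order of likeness Trh ranked 247 for Adam23, 196 for Slc7a7 and 631 for Nt5e, while Slc7a7 ranked 17 for Nt5e. Spearman rho between the 4 genes ran from 0.771, for Trh with Nt5e and with Adam23, to 1, for Nt5e with Adam23. The genes most like Trh were Peg10 (r = 0.991), Snapc3 (0.981) and Nup37 (0.963). Those most like Nt5e were Trf (0.993), which encodes transferrin, Snai3 (0.990) and Nos3 (0.985). Those most like Slc7a7 were Srl (0.992), Nos3 (0.990) and Ccdc3 (0.988), and those most like Adam23 were Scube2 (0.996), Pisd (0.995) and Tdrkh (0.993). Of these only Peg10 and Ccdc3 were themselves lower in all 3 comparisons, and Nos3 and Scube2 had at most 1.25 and 1.20 RPKM.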

How the data were processed

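Each deposited file held 1 library. The deposited values include a count of uniquely mapped reads per NCBI gene ID, whose sum equals the library total in the file headers. The RPKM values were computed by the authors from that count, the gene length and the total, checked on every gene. The percent of each gene's length covered by reads was also deposited by the authors, per the file headers. The submitters' processing notes name mm9 as the build; aligner and annotation are not given in the sources used here. A gene absent from a file was set to 0 reads, and files were joined by gene ID over 18857 genes. Gene symbols came from RefSeq by gene ID (18805 IDs matched) and otherwise from the 2 files that hold symbols. The files do not separate strands.

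Fold intervals are exact 95% Clopper-Pearson intervals of a gene's share of the reads of both libraries, scaled by the totals; level intervals are exact Poisson intervals. The labels' protocol names no molecular identifiers, so intervals cover counting error only. No p-value was computed. The call rule is given with the results. The 4 genes and the lists were chosen with earlier results of these data known. Named genes were the 4 members, up to 3 called genes per list and comparison with the most reads, fixed partners (1 of them is not reported here), the 3 genes on either side of the limit and the 3 most alike each member; some relatives and sums were added after their values were seen. Scaling alternatives used edgeR 4.0.16 (TMM) and DESeq2 1.42.0 (median of ratios), with R 4.3.3; other steps used Python 3.11.15, pandas 2.3.3 and scipy 1.17.1. Pseudocounts of 0.1 and 1, no filter, at least 100 reads, a 1.5-fold limit and Spearman rho were also tried.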

Additional observations from a re-analysis of the deposited data

How the results depend on the processing

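The 28 log2 ratios of the 4 genes kept their sign under pseudocounts of 0.1 and 1 and both other scalings, 112 values in all, and 10 moved by more than counting error. With TMM factors, Erk KO with Dox against KH2 gave 0.48 for Trh, −0.59 for Nt5e, −0.63 for Slc7a7 and −0.24 for Adam23. With median-of-ratios factors it gave 0.53, −0.54, −0.58 and −0.19, Slc7a7 had −0.98 between the PD0325901 libraries, and Trh had −1.98 at 96 hours against Dox.

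Counts of genes lower and then higher follow. With a 1.5-fold limit they were 653 and 1202 for PD0325901 in KH2, 216 and 441 for it in Erk KO, 847 and 834 at 48 hours, 788 and 1955 at 96 hours, 273 and 1425 for 96 against 48 hours, 4805 and 1070 for Erk KO with Dox against KH2, 4088 and 1320 between the PD0325901 libraries, and 71 lower in all 3 comparisons. For Erk KO with Dox against KH2 they were 1455 and 1006 with TMM and 1362 and 1141 with median-of-ratios factors; between the PD0325901 libraries 1095 and 959, and 1073 and 981. Median-of-ratios gave 87 lower at 96 against 48 hours. With pseudocount 0.1 the lower counts were 275, 112 and 89 for PD0325901 in KH2, in Erk KO and 96 against 48 hours. With pseudocount 1 they were 44 for PD0325901 in Erk KO, 160 at 48 hours and 35 (314 higher) at 96 against 48 hours, and 2 of the 4 genes remained lower in all 3 comparisons. With at least 100 reads they were 93 and 35 lower for PD0325901 in KH2 and Erk KO, 202 and 581 higher at 48 and 96 hours against Dox, and 30 lower and 312 higher at 96 against 48 hours.

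Of the 5 lists, the 1.5-fold limit gave 9 lower and 12 higher for PD0325901 in KH2, 1 and 3 in Erk KO, 6 and 6 at 48 hours, 6 and 15 at 96 hours, 1 lower at 96 against 48 hours and 24 lower for Erk KO with Dox. Both other scalings gave 3 lower at 96 hours and 9 lower between the PD0325901 libraries. At least 100 reads gave 1 and 2 for PD0325901 in KH2, 1, 2 and 1 higher at 48 hours, 96 hours and 96 against 48, and 6 and 8 lower for Erk KO against KH2 without and with PD0325901. Pseudocount 0.1 gave 2 higher for PD0325901 in Erk KO and 2 lower at 96 hours. Pseudocount 1 gave 0 higher for PD0325901 in KH2, 1 higher at 48 hours and 2 higher between the PD0325901 libraries.

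Beyond the changed setting itself, the cause of these moves was not tested. Depth limits Nt5e most, with 12 and 13 reads in its lowest libraries. No paired analysis was possible because each group has 1 library and the labels give no replicate numbers.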
